A study of Mus musculus with 12 samples.

Results

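After a 5-day serum-free episode at low oxygen and a 5-day return to serum, part of the expression profile of Min6 cells differed from that of cells kept in serum. The comparison covers the 4 return arrays (RC) against the 4 classic arrays (CC), 8 of the 12 arrays of the series, over all 35556 rows of the deposited log2 table, where a row is the value of 1 probe set. Min6 is an insulin-producing line derived from a mouse insulinoma and serves as a model of pancreatic beta cells. CC cells were kept at 20% oxygen in DMEM with 15% fetal calf serum, 2-mercaptoethanol and antibiotics for 3 periods of 5 days. RC cells had the same first period, then 5 days at 5% oxygen in serum-free DMEM-F12 with apo-transferrin, progesterone, putrescine, selenite and antibiotics, and then 5 days back in the serum medium at 20% oxygen. A further condition (DC) stayed in the serum-free medium at 5% oxygen for the last 10 days and is used here to show where the RC level lies. DC is a parallel arm and not an earlier time point of the RC cultures, which were not measured before their return. At harvest RC and CC cultures were thus in the same medium and oxygen, and the labels separate them by the preceding 5-day episode, in which serum, oxygen, basal medium and supplements changed together. The quadruplicates came from a single experiment with 1 cell line, so p-values measure the spread between these cultures and arrays.

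Beta cells secrete insulin when glucose metabolism closes potassium channels and calcium enters, and they depend on a large endoplasmic reticulum, zinc-rich secretory granules and electrical coupling through gap junctions. Low oxygen stabilises hypoxia-inducible factors, which raise glycolytic and mitochondria-sparing genes and are degraded again once oxygen returns. Removal of serum withdraws growth factors and lipoprotein cholesterol, and the loss of sterol activates SREBP factors and the sterol synthesis genes.

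The labelled cell type was checked on a set of markers. The 12 beta cell markers examined read 7.65 (the glucose transporter Slc2a2) to 13.86 (the amyloid peptide Iapp) in CC. Slc2a2 lay below the median of all values (7.99), near the median CC levels of exocrine and ductal (7.54) and of fibroblast, endothelial and immune markers (7.11). The next lowest beta cell marker, Nkx2-2, read 10.03. None of the 12 passed the test between RC and CC, where 0.166% of all genes passed as higher in RC and 1.07% as lower. Ins2, an insulin gene, was at 13.03 ± 0.03 in CC and 13.02 ± 0.05 in RC (SD, n = 4), a difference of -0.02 ± 0.05 (SE; limma adjusted p = 0.92). Hes3, the transcriptional repressor that the series is about, was at 7.27 ± 0.13 in CC and 7.38 ± 0.16 in RC without passing the test (0.12 ± 0.10, adjusted p = 0.76). None of the 12 measured exocrine and ductal markers and none of the 20 fibroblast, endothelial and immune markers passed, and their differences ran from 0.02 to 0.15 and from 0 to 0.24, with medians of 0.07 and 0.08 (-0.01 and 0.02 without RC 3) against 0.03 over all genes (0 without RC 3). In bulk cultures, fewer cells of a type and less RNA per cell cannot be told apart.

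RC 3 stood apart from its group. Its correlation with the other RC arrays was 0.977 at most, while RC 1, RC 2 and RC 4 correlated at 0.995 or more with each other. Its interquartile range was 2.42 against 2.58 to 2.65 for the other RC arrays. CC 1 and CC 2 had wider distributions (2.73 and 2.75) than CC 3 and CC 4 (2.58 and 2.57). Neither the medians (7.96 in CC, 8.01 in RC; exact two-sided permutation test, p = 0.171) nor the interquartile ranges (p = 0.286) separated the conditions, 0.0286 being the smallest p that 4 against 4 arrays can give. What sets RC 3 and the CC pairs apart was not tested, and the named calls below are given with the arrays whose omission ends them.

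A row was called when its adjusted p was under 0.05 by limma, with Benjamini-Hochberg adjustment over all rows, in a fit of 1 mean per condition to the 12 arrays. Between RC and CC, 283 of 35556 rows (0.796%) were called, of which 43 (0.121%) were higher and 240 (0.675%) lower in RC. The CC and RC arrays did not overlap in any of the 283 rows, against 2824 non-overlapping rows in all (7.94%). The called rows held 33 genes higher and 217 lower. Differences were small, and only 6 called rows (0.0169%) reached 2-fold, 1 higher and 5 lower. At an unadjusted p under 0.05 there were 3220 rows (9.06%). For scale, 2.63% of rows were called between RC and DC and 6.64% between DC and CC, comparisons that share arrays with this one.

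The number of calls depended on single arrays. Without RC 3 there were 311 (0.875%), 118 higher (0.332%) and 193 lower (0.543%). The fits with and without RC 3 shared 204 called rows, 72.1% of the 283 and 65.6% of the 311. Of the 107 rows called only without RC 3, 86 were higher in RC, so that the excess of falls over rises was smaller there. Leaving out another array gave counts between 57 (without RC 1) and 352 (without DC 4). Omitting RC 2 gave 88 calls and omitting RC 4 gave 151, and for CC 1 to CC 4 the counts were 91, 105, 64 and 64. A core of 52 rows, 7 higher and 45 lower, was called with all 12 arrays and in every one of the 12 fits with an array left out. These 52 rows hold 7 genes that rose and 42 that fell. Leaving out 2 CC arrays at once left fewer calls than this core: 23 without CC 1 and CC 2, and 18 without CC 3 and CC 4.

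**Figure D1:**
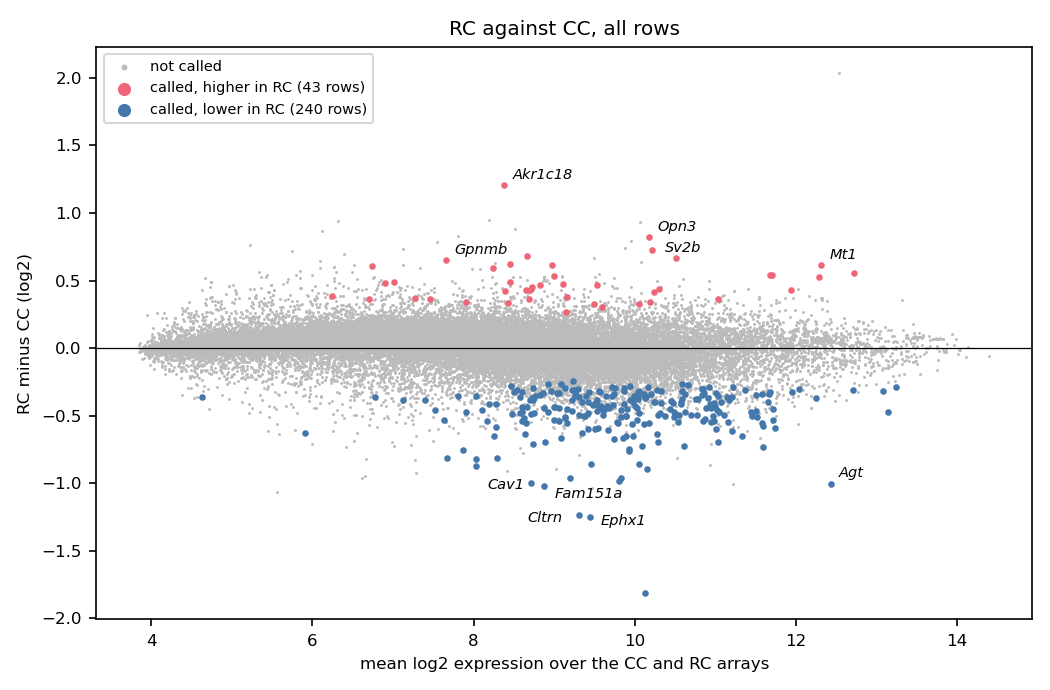
Each point is 1 of the 35556 rows, with the mean log2 expression over the CC and RC arrays on the horizontal axis and the RC minus CC log2 difference on the vertical axis. The 43 rows called higher are red and the 240 called lower are blue, and most of the lower calls lie among rows of above-median level.

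**Figure D2:**
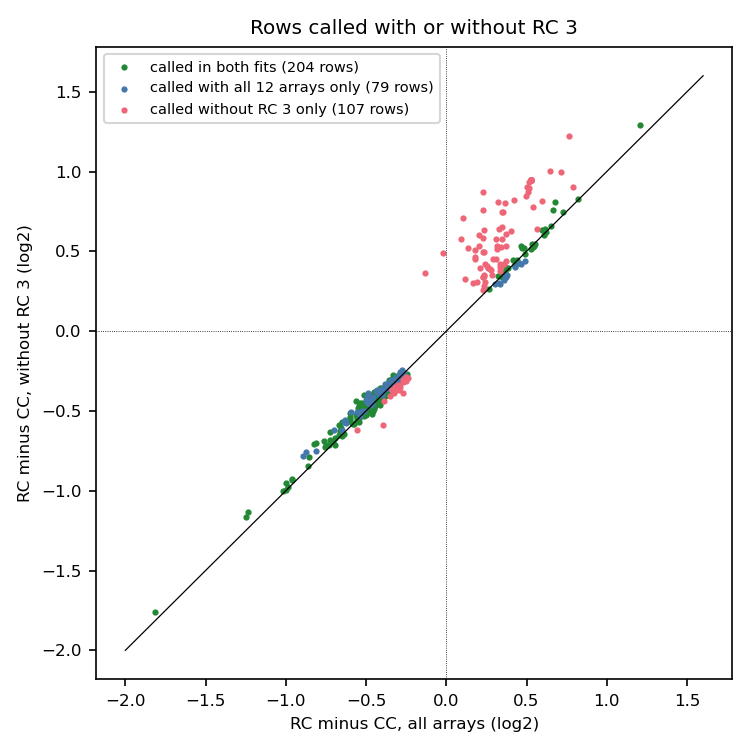
RC minus CC log2 difference with all arrays (horizontal) and without RC 3 (vertical) for rows called in either fit, with the line of equality. The 204 rows called in both fits are green, and most of the 107 rows called only without RC 3 are rises that lie above the line.

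Among the largest falls of named genes, Ephx1, Cltrn, Cav1, Selenop, Cd9 and Taar1 had RC levels that did not pass the test against DC. Ephx1, the microsomal epoxide hydrolase that detoxifies reactive epoxides, read 9.95, 9.97, 10.13 and 10.23 on CC 1 to CC 4 and 8.77, 8.89, 8.59 and 9.03 on RC 1 to RC 4. Every RC array was below every CC array, by 1.25 ± 0.12 in the means (2.37-fold; adjusted p = 0.00049). The DC mean was 8.92 ± 0.21, and RC minus DC was -0.10 with a 95% interval from -0.35 to 0.16 (adjusted p = 0.85). Cltrn encodes collectrin, a membrane glycoprotein of beta cells and kidney. It read 10.02, 9.64, 9.96 and 10.09 in CC and 8.83, 8.64, 8.37 and 8.91 in RC, again without overlap, and fell by 1.24 ± 0.16 (2.36-fold; adjusted p = 0.0044). Its DC mean was 8.74 ± 0.29, and RC minus DC was -0.05 (95% interval -0.39 to 0.29; adjusted p = 0.95).

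Cav1, the coat protein of the membrane pits called caveolae, read 9.23, 9.11, 9.24 and 9.24 in CC and 8.36, 8.10, 8.20 and 8.18 in RC, and fell by 1.00 ± 0.08 (2.00-fold; adjusted p = 0.00034). RC was 0.24 above DC (95% interval 0.06 to 0.42), which did not pass (limma adjusted p = 0.23). Selenop, the secreted selenoprotein that carries selenium between tissues, read 9.90, 9.70, 10.05 and 9.90 in CC and 9.15, 8.89, 8.98 and 9.10 in RC. It fell by 0.86 ± 0.10 (adjusted p = 0.003) and was 0.16 below DC, which did not pass (adjusted p = 0.63). Cd9, a tetraspanin, fell by 0.86 ± 0.10 (adjusted p = 0.0032), from 10.48 ± 0.13 to 9.62 ± 0.20, with DC at 9.67 ± 0.11. Taar1, the trace amine receptor, fell by 0.75 ± 0.07 (adjusted p = 0.00066), from 8.24 ± 0.12 to 7.49 ± 0.10, with DC at 7.40 ± 0.07. The calls of these 6 genes held in all 12 fits with an array left out.

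Agt, Tacr3 and Alpl lay between the other conditions. Agt, the angiotensin precursor angiotensinogen, read 12.86, 12.84, 12.99 and 13.03 in CC and 11.83, 12.02, 11.77 and 12.09 in RC, a fall of 1.00 ± 0.12 (2.00-fold; adjusted p = 0.0032). Its DC mean was 11.29 ± 0.26, and RC was above DC by 0.64 ± 0.12 (adjusted p = 0.012). The Agt level in RC lay between DC and CC, below CC on every array. Tacr3, the neurokinin B receptor, read 9.72, 9.66, 9.69 and 9.63 in CC and 8.72, 8.68, 8.61 and 8.86 in RC, a fall of 0.96 ± 0.07 (adjusted p = 0.00018). Its DC mean was 7.76 ± 0.11, so the RC arrays were 0.95 ± 0.07 above DC (adjusted p = 2.2e-05) and about as far below CC. Alpl, tissue-nonspecific alkaline phosphatase, fell by 0.69 ± 0.06 (adjusted p = 0.00042), from 9.23 ± 0.06 to 8.53 ± 0.05, with DC lower at 8.08 ± 0.10 and RC above it (0.45 ± 0.06, adjusted p = 0.0019). All 3 calls against CC held whichever array was left out.

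Other genes fell below both CC and DC. Fam151a, a gene without a settled function, read 9.47, 9.26, 9.38 and 9.43 in CC and 8.12, 8.54, 8.32 and 8.48 in RC. It fell by 1.02 ± 0.13 against CC (2.03-fold; adjusted p = 0.0058) and by 0.94 ± 0.13 against DC (adjusted p = 0.0021). DC itself did not differ from CC beyond the spread (-0.08 ± 0.13, adjusted p = 0.71). Tm4sf4, a membrane protein of the transmembrane 4 L6 family, read 10.20, 10.12, 10.54 and 10.38 in CC and 9.26, 9.44, 9.27 and 9.42 in RC. It was lower in RC by 0.96 ± 0.12 (adjusted p = 0.0037), and by 0.83 ± 0.12 against DC (adjusted p = 0.0019), while DC and CC differed by -0.13 ± 0.12 (adjusted p = 0.50). Atp2a3, the calcium pump SERCA3 of the endoplasmic reticulum, read 11.87, 11.98, 11.97 and 11.99 in CC and 11.17, 11.21, 11.18 and 11.32 in RC, a fall of 0.73 ± 0.08 (adjusted p = 0.0019). It was below DC as well, by 0.39 ± 0.08 (adjusted p = 0.02). These 3 falls against CC also held in all 12 fits with an array left out.

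Serping1, H2-M10.1 and Tmem47 complete the falls that the naming rule gives. Serping1, the C1 inhibitor of the complement cascade, fell by 0.90 ± 0.18 (adjusted p = 0.046), from 10.59 ± 0.14 to 9.70 ± 0.25, with DC at 9.65 ± 0.41. H2-M10.1, a class I histocompatibility gene of the M10 family, fell by 0.87 ± 0.17 (adjusted p = 0.036), from 8.47 ± 0.12 to 7.60 ± 0.23. Both calls were lost without RC 3 (adjusted p = 0.07 and 0.055) and also without any other CC or RC array or without DC 2 (highest adjusted p 0.16 and 0.13). Tmem47, a membrane protein of cell junctions, fell by 0.75 ± 0.13 (adjusted p = 0.023), a call lost without CC 1, CC 3, CC 4 or RC 2 (highest adjusted p 0.089).

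Rises were fewer. The highest named rise was that of Akr1c18, the 20-alpha-hydroxysteroid dehydrogenase that inactivates progesterone, a component of the serum-free medium. It read 8.03, 7.84, 7.65 and 7.57 in CC and 9.32, 8.80, 8.72 and 9.09 in RC, without overlap, and rose by 1.21 ± 0.19 (2.31-fold; adjusted p = 0.015). DC, still in that medium at harvest, read lower than RC at 7.19 ± 0.40, and RC exceeded DC by 1.79 ± 0.19 (adjusted p = 0.00023). A part of progesterone in these levels was not tested, as serum, oxygen, basal medium and supplements changed together. The Akr1c18 call against CC was lost without CC 3, CC 4 or RC 1 (highest adjusted p 0.066) and held without RC 3 (1.29, adjusted p = 0.017).

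Opn3, a non-visual opsin also called encephalopsin, read 9.79, 9.81, 9.75 and 9.72 in CC and 10.65, 10.48, 10.56 and 10.66 in RC, a rise of 0.82 ± 0.14 (1.77-fold; adjusted p = 0.023). It was above DC by 1.04 ± 0.14 (adjusted p = 0.0014), and DC did not differ from CC beyond the spread (-0.22 ± 0.14, adjusted p = 0.36). The call was lost without any of the CC arrays or without RC 1, RC 2 or RC 4 (highest adjusted p 0.088) and kept without RC 3 (adjusted p = 0.038), although CC and RC lie far apart on every array. The spread of DC for Opn3 was wide (SD 0.36, against 0.04 in CC and 0.08 in RC) and enters the error of the fit. Chml, a Rab escort protein gene that lies within Opn3 in the RefSeq GRCm38.p6 annotation, rose by 0.46 ± 0.10 (adjusted p = 0.048) and was likewise above DC (0.69 ± 0.10, adjusted p = 0.0017). Its call was lost without any DC array but DC 1, without CC 1, CC 3 or CC 4, or without RC 1, RC 2 or RC 4 (highest adjusted p 0.17), and was kept without RC 3 (0.54, adjusted p = 0.023). Whether probes of one gene take signal from transcripts of the other was not tested.

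Slc1a2 and Ppargc1a rose above both other conditions with narrow spreads. Slc1a2, the glutamate transporter GLT-1, read 8.06, 8.11, 8.19 and 8.18 in CC and 8.68, 8.79, 8.76 and 8.80 in RC. It rose by 0.62 ± 0.06 against CC (1.54-fold; adjusted p = 0.00049) and by 0.77 ± 0.06 against DC (adjusted p = 2.2e-05). Ppargc1a, the coactivator PGC-1alpha that drives mitochondrial biogenesis, read 7.94, 8.07, 7.96 and 7.80 in CC and 8.64, 8.45, 8.43 and 8.63 in RC, a rise of 0.59 ± 0.08 (1.51-fold; adjusted p = 0.0084). RC was above DC by 0.68 ± 0.08 (adjusted p = 0.00076). A second Ppargc1a row differed by 0.60 ± 0.20 and did not pass (adjusted p = 0.27). RC 3 read 5.74 there against 6.49 to 6.69 on the other RC arrays, and the row passed without RC 3 (0.81, adjusted p = 0.022). Gpnmb, a glycoprotein of lysosomes and melanosomes that was named after its values were seen, read 7.20, 7.35, 7.42 and 7.35 in CC and 8.01, 7.98, 7.97 and 7.97 in RC (0.65 ± 0.06, adjusted p = 0.00042). Its RC arrays agreed within 0.02 (SD) and stood 0.56 ± 0.06 above DC (adjusted p = 0.00021). The calls of Slc1a2, Ppargc1a in its brighter row and Gpnmb held in all 12 fits with an array left out.

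Sv2b and the metallothioneins were above CC in RC and higher again in DC. Sv2b, a synaptic vesicle glycoprotein also found on endocrine granules, read 9.74, 9.83, 9.95 and 9.90 in CC and 10.54, 10.54, 10.51 and 10.72 in RC, a rise of 0.72 ± 0.08 (1.65-fold; adjusted p = 0.0019). DC was higher still at 11.39 ± 0.13, and RC was below it by 0.81 ± 0.08 (adjusted p = 0.00014). Mt1 and Mt2 encode metallothioneins, small proteins that bind zinc and copper. Mt1 read 12.08, 12.09, 11.96 and 11.89 in CC and 12.66, 12.58, 12.61 and 12.63 in RC, a rise of 0.62 ± 0.06 (1.53-fold; adjusted p = 0.00088). Mt2 read 12.47, 12.52, 12.43 and 12.35 in CC and 13.14, 12.85, 13.01 and 12.98 in RC, a rise of 0.55 ± 0.07 (1.47-fold; adjusted p = 0.0037). The DC means were 13.13 ± 0.07 and 13.45 ± 0.04, and RC was below them by 0.51 ± 0.06 (adjusted p = 0.00072) and 0.46 ± 0.07 (adjusted p = 0.0026). For both genes the order was CC, RC, DC with no overlap between CC and RC, and the calls of Sv2b, Mt1 and Mt2 held whichever array was left out.

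Metallothionein promoters are known for metal response elements, and sterol synthesis promoters for sterol regulatory elements. The 250 bases upstream of the Mt2 start (RefSeq, GRCm38.p6, chr8:94172368-94172617, plus strand) and of the Hmgcs1 start (chr13:119690101-119690350, plus strand) are shown because these genes were above CC in RC. Capitals mark matches on either strand to the core TGCACNC or TGCGCNC in Mt2 and to TCACNCCAC in Hmgcs1.
Mt2: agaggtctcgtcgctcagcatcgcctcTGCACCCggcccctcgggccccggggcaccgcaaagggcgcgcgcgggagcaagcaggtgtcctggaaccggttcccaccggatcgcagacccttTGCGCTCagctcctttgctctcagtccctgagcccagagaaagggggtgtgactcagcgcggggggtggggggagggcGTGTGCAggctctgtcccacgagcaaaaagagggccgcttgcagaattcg
Hmgcs1: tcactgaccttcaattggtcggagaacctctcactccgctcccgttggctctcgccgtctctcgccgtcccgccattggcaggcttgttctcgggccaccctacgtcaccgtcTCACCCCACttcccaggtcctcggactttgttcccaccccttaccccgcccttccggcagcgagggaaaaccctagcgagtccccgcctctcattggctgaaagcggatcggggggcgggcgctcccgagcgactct
The Mt2 window held 3 matches to the metal response core and the Mt1 window 1, though the Mt1 window overlaps a longer transcript model and is not printed. Of 32851 promoter windows of this length, 21.4% held at least 1 match and 1.26% held 3 or more. The sterol motif was found in 1.05% of all windows, and among the 16 measured cholesterol genes with a promoter entry only Hmgcs1 had it. A match is a run of letters and not a bound site.

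Hmgcs1, the synthase that makes the precursor of mevalonate, read 8.74, 8.84, 8.55 and 8.52 in CC and 9.37, 9.31, 9.20 and 9.23 in RC, a rise of 0.62 ± 0.10 (1.53-fold; adjusted p = 0.022). The DC mean was 10.37 ± 0.20, and RC was below it by 1.09 ± 0.10 (adjusted p = 0.00012). The call against CC was lost without CC 1, CC 3, CC 4, RC 1 or RC 2 (highest adjusted p 0.088) and held without RC 3 (adjusted p = 0.028). Of the 20 measured genes of cholesterol synthesis and uptake, 1 was higher in RC (Hmgcs1), 1 was lower and 18 did not pass, with a median difference of 0.08, where 0.166% of all genes were higher and 1.07% lower. The lower one was Ebp, the sterol isomerase, which fell by 0.53 ± 0.10 (adjusted p = 0.034), to 10.60 ± 0.16 from 11.13 ± 0.09, with DC equally low at 10.65 ± 0.18. The Ebp call was lost without any CC array or without RC 1 or RC 2 (highest adjusted p 0.12). Srebf1, the SREBP factor of lipid synthesis, was the only called member of 17 fatty acid genes and was lower in RC (-0.30 ± 0.06, adjusted p = 0.037). The parallel DC arrays were above CC for this gene (0.43 ± 0.06, adjusted p = 0.00064). The Srebf1 call was lost without RC 3 (adjusted p = 0.051), without any other CC or RC array or without DC 2 (highest adjusted p 0.15).

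Mif, Cpeb1 and 2 further genes complete the named rises. Mif, a cytokine with tautomerase activity, has 3 rows with 1 symbol, and all 3 were called. Its brightest row rose by 0.53 ± 0.09 (adjusted p = 0.022), from 12.02 ± 0.10 to 12.55 ± 0.11, with DC higher at 13.17 ± 0.16. Mif has processed pseudogenes that could share signal with it, and its call was lost without CC 1, CC 3, CC 4, RC 1 or RC 4 (highest adjusted p 0.088). Cpeb1, a regulator of mRNA polyadenylation, rose by 0.67 ± 0.12 (adjusted p = 0.03), from 10.18 ± 0.08 to 10.85 ± 0.22, and did not differ from DC beyond the spread (-0.26 ± 0.12, adjusted p = 0.43). Its call was lost without any CC array or without RC 1, RC 2 or RC 4 (highest adjusted p 0.11) and was kept without RC 3 (0.76, adjusted p = 0.012). Fnip2, a partner of folliculin, rose by 0.47 ± 0.09 (adjusted p = 0.032) to the DC level, and the call was lost without CC 1, CC 3, CC 4, RC 1, RC 2 or RC 4 (highest adjusted p 0.12). Lonrf3, a RING finger gene, rose by 0.53 ± 0.09 (adjusted p = 0.023), lost without CC 1, CC 3, CC 4, RC 1 or RC 4 (highest adjusted p 0.091).

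Wsb1 and Gdap10 were named because they passed when RC 3 was left out and did not pass with all 12 arrays. Wsb1, a substrate receptor of a ubiquitin ligase, read 9.70, 9.79, 9.40 and 9.33 in CC and 10.35, 10.47, 10.00 and 10.55 in RC. The difference was 0.79 ± 0.18 with all arrays (adjusted p = 0.076) and 0.90 without RC 3 (adjusted p = 0.044). Wsb1 also passed with RC 3 in the fit to the CC and RC arrays alone (adjusted p = 0.047) and without DC 4 (adjusted p = 0.031). Gdap10 read 8.10, 8.27, 8.19 and 8.10 in CC and 8.66, 8.73, 7.83 and 8.83 in RC, so that RC 3 lay below all CC arrays and the other RC arrays above them. Its difference was 0.35 ± 0.18 with RC 3 (adjusted p = 0.63) and 0.58 without it (adjusted p = 0.022).

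**Figure D3:**
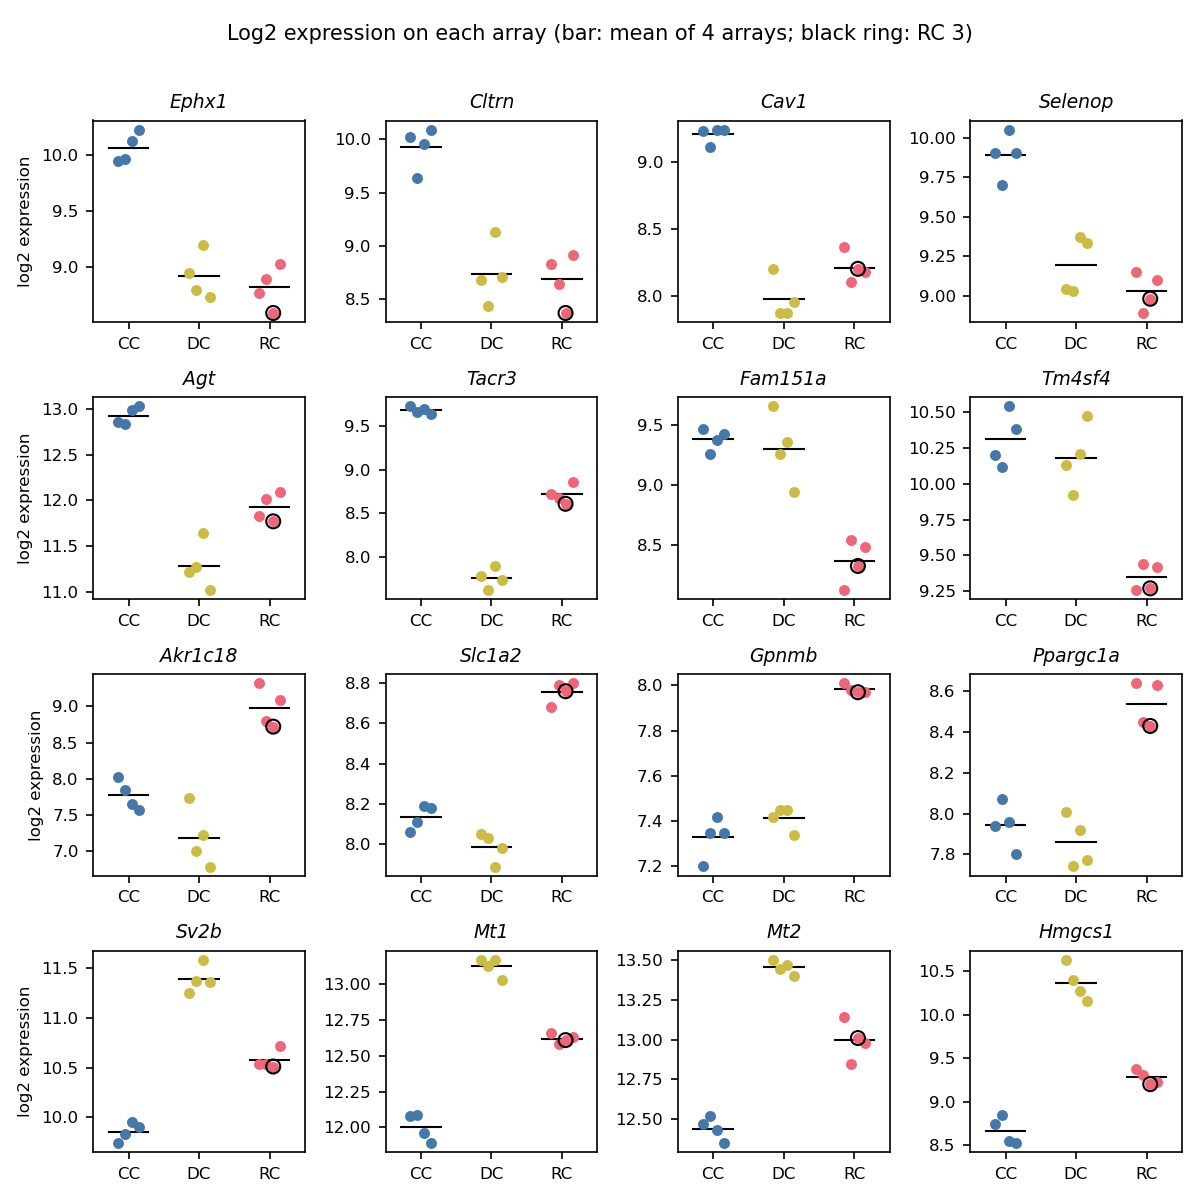
Log2 expression (vertical axes, each with its own range) of 16 genes on every CC, DC and RC array, with bars at the means of 4 arrays and a black ring around RC 3. The top 6 genes are lower in RC than in CC on every array, Fam151a and Tm4sf4 are below both conditions, Akr1c18, Slc1a2, Gpnmb and Ppargc1a are above both, and the last 4 lie between CC and DC.

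**Figure D4:**
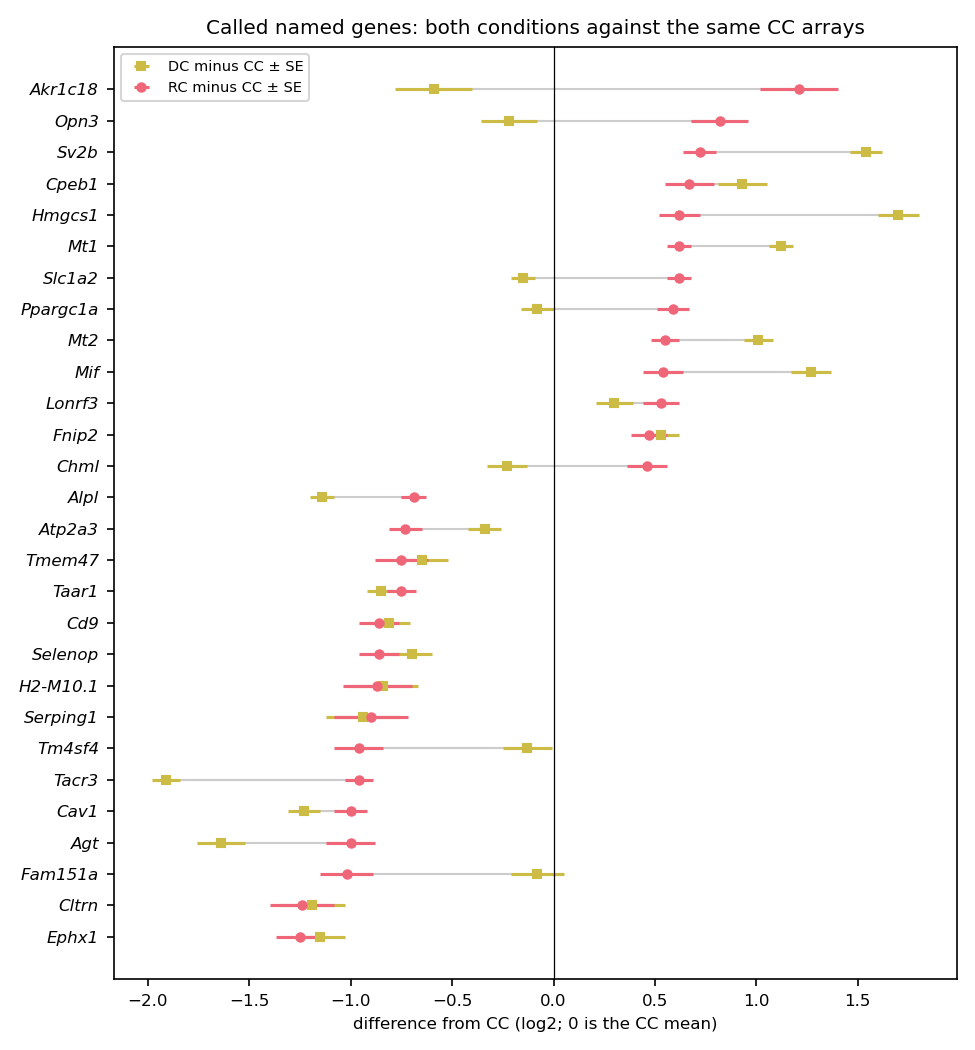
Log2 difference from CC of RC (red circles) and DC (yellow squares), with standard errors, for the 28 genes that the naming rule took from the largest rises and falls and that were called with all arrays. Both are measured against the same 4 CC arrays, whose mean is 0.

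Hypoxia and glycolysis genes had no call in the fit to 12 arrays, and this changed when DC arrays were left out of the fit. Of 27 measured hypoxia response genes none passed and 22 read above CC, with a median difference of 0.18. Of 18 glycolysis genes none passed and 17 read above CC, with a median of 0.22. Over all genes the median was 0.03, and 0.166% were called higher. Bnip3, Pdk1 and Ak4 read higher on every RC array than on any CC array. Over all rows, 7.94% had CC and RC groups without overlap, in either direction. Bnip3, a mitophagy receptor, read 9.75, 9.65, 9.49 and 9.47 in CC and 10.67, 10.36, 10.43 and 10.66 in RC (0.94 ± 0.20, adjusted p = 0.053). Pdk1, a kinase that inhibits pyruvate dehydrogenase, read 8.08, 8.11, 7.96 and 8.11 in CC and 9.02, 8.89, 8.81 and 9.06 in RC (0.88 ± 0.23, adjusted p = 0.14). Ak4, a mitochondrial adenylate kinase, read 7.70, 7.79, 7.74 and 7.64 in CC and 8.88, 8.45, 8.58 and 8.75 in RC (0.95 ± 0.25, adjusted p = 0.13). Pdk1 and Ak4 are named here after their values were seen.

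The spread of these genes was far wider in DC, where the SDs were 0.51 for Bnip3, 0.64 for Pdk1 and 0.67 for Ak4, against 0.06 to 0.19 in CC and RC. In the fit to the CC and RC arrays alone, with the same means, Bnip3 (0.94 ± 0.10, adjusted p = 0.0061), Pdk1 (0.88 ± 0.07, adjusted p = 0.0029) and Ak4 (0.95 ± 0.09, adjusted p = 0.0061) were called higher. So were Bhlhe40, Fam162a and Pfkfb3, making 6 of 27 hypoxia genes (22.2%), and Ldha and Aldoc, making 2 of 18 glycolysis genes (11.1%), where 0.236% of all genes were called higher. The fit to all arrays but DC 4 called higher 4 hypoxia genes (Ak4, Bnip3, Pdk1 and Pfkfb3) and the same 2 glycolysis genes, with 0.281% of all genes. With neither the DC arrays nor RC 3 there were 7 and 3, with 0.752% of all genes. The fit without DC 3 called 1 hypoxia gene, and the 10 fits without another array called none. All of these levels were well below DC, where Bnip3 was at 12.05, Pdk1 at 10.38 and Ak4 at 10.46. A second, dimmer Bnip3 row differed by 0.67 ± 0.21 with all 12 arrays (adjusted p = 0.25), and a second Ak4 row by 0.30 ± 0.11 (adjusted p = 0.33) with overlap between CC and RC.

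The endoplasmic reticulum list leaned the other way. All 22 measured chaperone and unfolded protein response genes read below CC, by 0.07 to 0.45, with a median of -0.25. Over all genes, 7828 of 19938 read below CC and the median was 0.03. Of 30 cell cycle and replication genes, 26 read below CC, with a median of -0.06. Only Xbp1, the transcription factor that expands the secretory pathway, was called. It read 11.93, 11.84, 11.82 and 11.83 in CC and 11.49, 11.38, 11.40 and 11.57 in RC, a fall of 0.40 ± 0.07 (adjusted p = 0.034), level with DC (0.02 ± 0.07, adjusted p = 0.97). The Xbp1 call was lost without RC 3 (adjusted p = 0.052) and without RC 1, RC 2, DC 2 or any CC array (highest adjusted p 0.12). Dnajc3, an inhibitor of the stress kinase PERK, was the lowest member at -0.45 ± 0.10 (adjusted p = 0.054). Without RC 3 no member was called, the median was -0.17 and 0.833% of all genes were lower, against 1.07% with all arrays. In the fit to the CC and RC arrays alone 3 of 22 were called lower (13.6%, against 1.04% of all genes).

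The lists of beta cell genes held calls in single members or none, where 0.166% of all genes were called higher and 1.07% lower. Lists this short cannot tell such counts from that share. Ptprn2, the granule membrane protein phogrin, was the called member of 12 granin and prohormone processing genes. All of these read below CC, as did 7828 of all 19938 genes. Ptprn2 fell by 0.34 ± 0.06 (adjusted p = 0.031), from 11.75 ± 0.04 to 11.41 ± 0.09, and was below DC too (-0.28 ± 0.06, adjusted p = 0.031). Its call was lost without any CC array or without RC 1 or RC 2 (highest adjusted p 0.12). Ttr, the thyroxine carrier transthyretin, was the called member of 13 islet hormone and peptide genes and falls in the liver-type list as well. It fell by 0.47 ± 0.09 (adjusted p = 0.032), from 13.38 ± 0.05 to 12.91 ± 0.12, with DC at 12.83 ± 0.18, and the call was lost without any CC array or without RC 1, RC 2 or RC 4 (highest adjusted p 0.12). None of the 20 beta cell transcription factors and none of the 21 genes of the secretion machinery passed. Insm1 (-0.32 ± 0.09, adjusted p = 0.15) had the smallest p in the first list, and Ffar1, the fatty acid receptor (-0.48 ± 0.12, adjusted p = 0.096), in the second.

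Electrical coupling and receptors were represented among the calls by genes named after their values were seen. Gjd2, the connexin of beta cell gap junctions, read 10.93 to 11 in CC and 10.28, 10.25, 10.13 and 10.34 in RC. It fell by 0.72 ± 0.07 (1.65-fold; adjusted p = 0.00042) and did not differ from DC beyond the spread (RC minus DC 0.06, 95% interval -0.08 to 0.20). Gabbr2, a subunit of the GABA-B receptor, fell by 0.57 ± 0.08 (adjusted p = 0.0069), from 11.88 ± 0.05 to 11.30 ± 0.06, with DC at 11.13 ± 0.17. Kl, the FGF coreceptor klotho, fell by 0.54 ± 0.07 (adjusted p = 0.0064) and Gpr161, a receptor of primary cilia, by 0.46 ± 0.06 (adjusted p = 0.0058). These 4 calls held in all 12 fits with an array left out. Insrr, the insulin receptor-related receptor, read 9.52, 9.51, 9.76 and 9.82 in CC and 9.07, 9.05, 8.88 and 9.11 in RC, a fall of 0.63 ± 0.11 (adjusted p = 0.031). DC was above CC for this gene (0.56 ± 0.11, adjusted p = 0.01), so RC and DC lay on opposite sides. The Insrr call was lost without any CC or RC array, RC 3 included (adjusted p = 0.051; up to 0.12). Vipr1, a receptor for vasoactive intestinal peptide, fell in 1 of its 2 rows by 0.59 ± 0.09 (adjusted p = 0.013), lost without CC 3, CC 4 or RC 1 (highest adjusted p 0.059), while its dimmer row differed by -0.15 ± 0.08 (adjusted p = 0.64). Cacna1e, the R-type calcium channel, rose by 0.43 ± 0.07 (adjusted p = 0.015), lying between CC and DC, and the call was lost without CC 1, CC 3, RC 1 or RC 2 (highest adjusted p 0.065).

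Of 26 measured matrix and adhesion genes 1 was higher, 1 lower and 24 did not pass, where 0.166% of all genes were higher and 1.07% lower. Ccdc80, a secreted matrix protein, fell by 0.64 ± 0.12 (adjusted p = 0.036), from 10.59 ± 0.03 to 9.95 ± 0.15, and was above DC by 1.87 ± 0.12 (adjusted p = 1.4e-05). Its call was lost without RC 3 (adjusted p = 0.059) and without any other CC or RC array (highest adjusted p 0.12). Itga7, a laminin receptor subunit, rose by 0.43 ± 0.07 (adjusted p = 0.018), from 8.49 ± 0.05 to 8.92 ± 0.12, with DC below CC at 8.16 ± 0.08, and the call was lost without any CC array or without RC 2 (highest adjusted p 0.074). Fndc1, a fibronectin-domain gene named after its values were seen, read 11.72 ± 0.09 in CC and 10.72 ± 0.20 in RC without overlap and did not pass (SE of the difference 0.21, adjusted p = 0.055). Sulf2, an extracellular sulfatase that trims heparan sulfate, also named after its values were seen, read 8.93, 8.94, 8.97 and 8.97 in CC and 8.29, 8.34, 8.34 and 8.31 in RC (-0.64 ± 0.05, adjusted p = 0.00018). Its spread was narrow in both groups (SD 0.02 in CC and 0.03 in RC), and it was level with DC (0.11 ± 0.05, adjusted p = 0.40) and was called in all 12 fits with an array left out. Adamts9, a secreted metalloprotease named in the same way, has 6 rows, of which 5 were called lower, by 0.44 to 0.81, and 1 was not (-0.17 ± 0.08, adjusted p = 0.61). Of the 5 called rows, 1 (a fall of 0.50 ± 0.06, adjusted p = 0.005) was called in all 12 fits with an array left out.

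Growth and signalling lists gave single calls or none, where 0.166% of all genes were called higher and 1.07% lower. Such counts cannot be told from that share in lists of this size. Bmp2, a bone morphogenetic protein, was the called member of 17 Id and BMP feedback genes. It fell by 0.82 ± 0.13 (adjusted p = 0.018), from 8.44 ± 0.21 to 7.62 ± 0.27, and was above DC by 0.72 ± 0.13 (adjusted p = 0.011), with the call lost without CC 1, CC 3, CC 4 or RC 2 (highest adjusted p 0.074). Id1 and Id2, nuclear inhibitors of helix-loop-helix factors, did not pass (differences of 0.03 ± 0.14 and 0.12 ± 0.13, adjusted p = 0.96 and 0.79). Their CC arrays were split. Id1 read 10.03, 10.09, 9.46 and 9.52 on CC 1 to CC 4, and its RC arrays lay between the CC pairs at 9.67 to 9.86. Id2 read 11.29, 11.18, 10.86 and 10.79 in CC and 10.97 to 11.40 in RC. Jun, a subunit of the transcription factor AP-1, was the called member of 21 immediate early genes. It read 10.25, 10.26, 10.36 and 10.30 in CC and 9.77, 9.76, 9.76 and 9.74 in RC, a fall of 0.53 ± 0.08 (adjusted p = 0.0084) that held in all 12 fits with an array left out. Vcl, the adhesion protein vinculin, fell by 0.48 ± 0.09 (adjusted p = 0.032) as the called member of 18 actin and SRF genes, and the call was lost without RC 3 (adjusted p = 0.051), RC 1, RC 2 or any CC array (highest adjusted p 0.12). None of 14 ERK feedback genes and none of 30 cell cycle and replication genes passed.

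Of 23 antioxidant, metallothionein and selenoprotein genes 2 were higher (Mt1 and Mt2), 1 lower (Selenop) and 20 did not pass, where 0.166% of all genes were higher and 1.07% lower. Slc40a1, the iron exporter ferroportin, was the called member of 12 iron genes. It fell by 0.47 ± 0.09 (adjusted p = 0.034), from 8.84 ± 0.13 to 8.37 ± 0.06, and was above DC by 0.90 ± 0.09 (adjusted p = 0.00015), and the call was lost without RC 3 (adjusted p = 0.051), any other CC or RC array or DC 2 (highest adjusted p 0.12). Igfbp4, an IGF-binding protein among 16 genes normally kept low in beta cells, fell by 0.45 ± 0.08 (adjusted p = 0.032), lost without any CC array, DC 2, RC 1 or RC 2 (highest adjusted p 0.12). Tap1, a peptide transporter of antigen presentation, fell by 0.43 ± 0.07 (adjusted p = 0.015) as the called member of 19, lost without any CC array or without RC 1 (highest adjusted p 0.065). None of the 32 lists had more than 2 called members in either direction in the fit to 12 arrays.

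**Figure D5:**
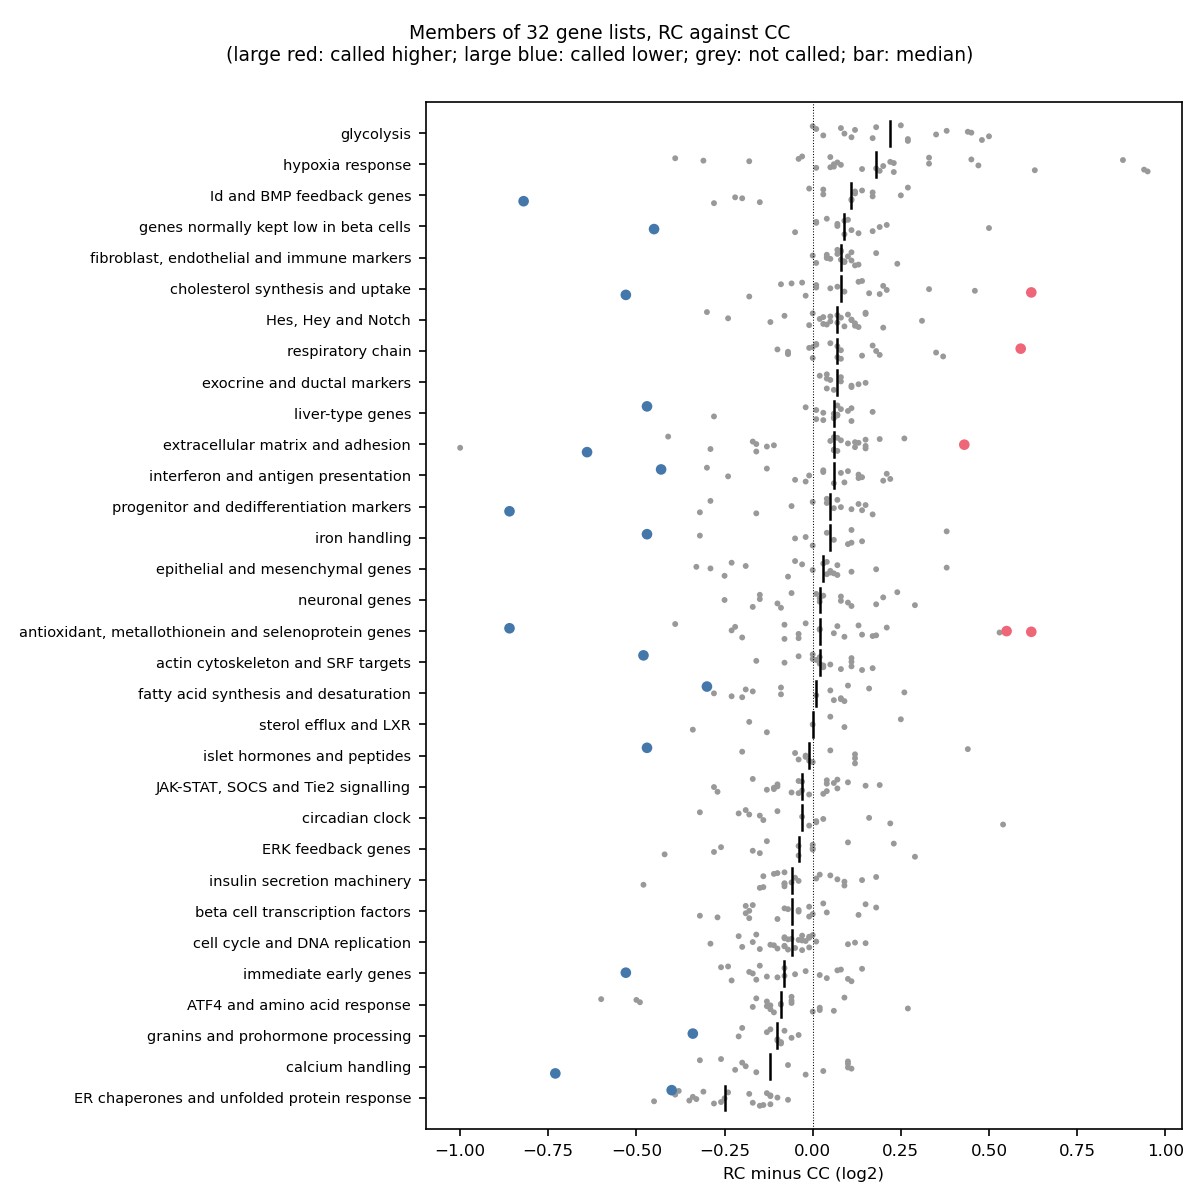
RC minus CC log2 difference of every measured member of 32 gene lists, ordered by the list median (black bar). Called members are large and red (higher) or blue (lower), and the grey remainder did not pass. The glycolysis and hypoxia medians are the highest (0.22 and 0.18) and the endoplasmic reticulum median is the lowest (-0.25).

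Some of the largest differences were in rows without a gene symbol. Probe set 10531149 fell from 11.04 ± 0.21 to 9.22 ± 0.12, by 1.81 ± 0.11 (3.51-fold; adjusted p = 2.4e-05), the largest called difference, with DC at 9.03 ± 0.14. Probe set 10381994 fell by 0.98 ± 0.09 (adjusted p = 0.00042) and lay 1.06 ± 0.09 below DC (adjusted p = 5.4e-05). Both calls held in all 12 fits with an array left out. The largest difference of any row was not called. Probe set 10582549 read 11.43, 11.34, 11.57 and 11.72 in CC and 13.67, 13.71, 13.30 and 13.53 in RC, 2.04 ± 0.59 higher (4.10-fold; adjusted p = 0.18). DC 4 read 9.17 there and the other DC arrays 12.45 to 12.55, and without DC 4 the same difference had an error of 0.10 and was called (adjusted p = 1.8e-05).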

How the data were processed

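Total RNA of Min6 cultures was labelled with biotin after the Ambion WT Expression Kit and hybridised to Affymetrix arrays, per the labels' protocols. The authors deposited log2 expression values, 1 per probe set and array (3.69 to 14.47). The scale was read from this range, and the sources used here do not name the summarising software or the normalization. No detection call or background was used, and precision is limited by how many arrays there are. Genes were named through the platform annotation: 21789 rows have 1 symbol, 1621 several and 12146 none, and 21698 were matched to RefSeq (GRCm38.p6). For a gene with several rows the brightest stands for it in lists (19938 genes). 476 rows repeat the values of an earlier row, none of them called. The fit used limma 3.58.1 (lmFit, contrasts.fit, eBayes) in R 4.3.3 on all 12 arrays with 9 residual degrees of freedom (8 without RC 3) and was two-sided. It was also run on simulated data in which all arrays of a row had the same spread. Those data held no array that stands apart and no wider spread in DC, so they do not test the fit under these features. Levels carry SDs and differences limma's standard errors, with 95% intervals.

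Named were Hes3 and Ins2; the 10 greatest differences each way among called rows that carry 1 symbol, with non-overlapping groups and a higher group mean above the median of all values (7.99), without predicted, clone-named, small RNA, olfactory, vomeronasal and histone genes; 5 more each way without RC 3; and up to 3 called members per list, or the member with the smallest p. The genes, the 32 lists and the comparison were chosen with earlier results of these data known. Some genes are not analysed here. The comparisons share arrays, so their values stand side by side without a count of overlap.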

Additional observations from a re-analysis of the deposited data

Results flagged for a closer look

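In 11 of 208 groups of 4 arrays, 10 for a gene and 1 for an array measure, the highest or lowest array stood apart, with a gap to its nearest neighbour that took more of the range than Dixon's 95% critical value, and chance alone marks about 1 in 20. Of the 11, 7 were in RC, 4 of them on RC 3, and 4 in CC. The mean correlation of RC 3 with its own condition was 0.98, against 0.99 for the other RC arrays. On RC 3, Pdgfrb read 7.99, Socs2 8.44 (both above the other RC arrays) and Trp53inp1 9.34 (below them). On other RC arrays, Sv2b read 10.72 on RC 4, Id1 9.67 on RC 2 and Dglucy 7.85 on RC 1. In CC, Cav1 read 9.11, Abcg1 10.71 and Etv4 9.24 on CC 2, and Alpl 9.32 on CC 3. For Abcg1 the 4 CC arrays lie within 10.71 to 10.72, a very narrow range. Sv2b, Cav1, Alpl, Trp53inp1 and Dglucy were called between RC and CC, and all of these calls but that of Trp53inp1 held whichever array was left out.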

How the results depend on the processing

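Counts of called rows moved with the settings. None of the called rows named or listed reversed in any of them, and rows not called were not checked for this. As the settings refit the same arrays, a reversal was unlikely from the start. In total, higher and lower calls, against 283, 43 and 240, the interquartile range as a covariate gave 636, 272 and 364, the CC and RC arrays alone without RC 3 gave 858, 367 and 491, and array weights gave 2818, 1477 and 1341. Rows above the median level gave 439, 60 and 379, and rows with 1 symbol 491, 83 and 408. Without CC 1 and CC 2 there were 23, 4 and 19, and without CC 3 and CC 4 18, 5 and 13. With an array left out the ranges were 57 to 352, 7 to 118 and 49 to 282. The share of higher calls was 15.2%, but 42.8% with the covariate or with neither DC nor RC 3, 52.4% with weights, 37.9% without RC 3, 27.8% without CC 3 and CC 4. Quantile normalization gave 75 higher calls and arrays centred on a common median 24, against 43. The cause of these moves was not tested, apart from fewer rows tested or fewer arrays fitted where the setting itself removes them. Deviations of same-numbered CC and RC arrays from their group means correlated at 0.47, -0.06, 0.32 and -0.32. These values differ in sign, and the group means include RC 3 and the CC pairs. They cannot decide whether the numbers pair samples, and the main fit used no pairing. With the replicate block there were 68 calls, 10 higher and 58 lower. Of 78 called rows named or listed, the block kept 44, quantile normalization 71 and the fit without RC 3 65. Leaving out CC 1 and CC 2 together kept 21, and leaving out CC 3 and CC 4 together kept 14. Agt, Fam151a, Ppargc1a, Jun and Mdm2, which held with any single array left out, were lost in both of these fits. Ephx1, Cav1, Tacr3, Slc1a2 and Mt1 were kept in both. Scan dates and detection were not analysed here.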

Other observations

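Gene families that were counted after values had been seen held some of the lower calls, and these counts carry no test. Of 27 measured genes of p53 and its targets, 6 were lower in RC (22.2%, against 1.07% of all genes and 1.84% of the 11014 genes above the median level) and none higher. They were Plk2, Trp53inp1, Ei24, Zmat3, Mdm2 and Gtse1. Mdm2, the ubiquitin ligase that degrades p53, read 10.12, 10.15, 10.03 and 10.01 in CC and 9.60, 9.58, 9.48 and 9.62 in RC, a fall of 0.51 ± 0.07 (limma adjusted p = 0.0058) to the DC level of 9.55 ± 0.11. Zmat3, an RNA-binding p53 target, fell by 0.55 ± 0.07 (adjusted p = 0.0044) and Ei24, an endoplasmic reticulum protein, by 0.73 ± 0.10 (adjusted p = 0.0078). The calls of Mdm2, Zmat3 and Ei24 held in all 12 fits with an array left out. The calls of the other members did not: Plk2 was lost without any CC or RC array or without DC 2 or DC 3 (adjusted p = 0.074 without RC 3, 0.15 at most), Trp53inp1 without CC 1, CC 2, CC 3, RC 1 or RC 2 (highest adjusted p 0.065) and Gtse1 without any CC array, RC 1, RC 2 or RC 4 (highest adjusted p 0.11). The count was 5 without RC 3 and 3 to 8 over the 12 fits with an array left out, with 3 without RC 1.

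Transporter and Tmem symbols were counted as well, with 1.07% of all genes lower (1.84% above the median level) and 0.166% higher. Of 48 genes whose symbol starts with Abc, 4 were lower (8.33%) and none higher. Abcg2, a drug and urate exporter, fell by 0.46 ± 0.07 (adjusted p = 0.013), from 7.75 ± 0.06 to 7.29 ± 0.11, Abcc4 by 0.39 ± 0.06 (adjusted p = 0.013), Abcb4, a phospholipid exporter, by 0.41 ± 0.06 (adjusted p = 0.014) and Abcb6 by 0.50 ± 0.10 (adjusted p = 0.036). The Abcg2 call was lost without CC 3, CC 4 or RC 1, that of Abcc4 without CC 4 or RC 1, that of Abcb4 without CC 1, CC 2, CC 4 or RC 1, and that of Abcb6 without RC 3, RC 1, RC 2, DC 2 or any CC array (adjusted p at most 0.13 in all). The count was 3 without RC 3 and 0 without RC 1. Of 364 genes whose symbol starts with Slc, 22 were lower (6.04%) and 1, Slc1a2, higher, with 17 lower without RC 3 and 3 to 28 over the fits with an array left out, 3 being without RC 1. Of 224 genes whose symbol starts with Tmem, 7 were lower (3.12%; 7 without RC 3, and 1 to 9 over the fits with an array left out) and none higher. Of 67 ribosomal protein genes none was called, and their median difference was 0.02.

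Ddr1, a collagen receptor, Fat4, a giant cadherin, and Ptprr, a tyrosine phosphatase, were lower in RC than in CC and DC alike. Ddr1 fell by 0.45 ± 0.06 against CC (adjusted p = 0.0058) and by 0.39 ± 0.06 against DC (adjusted p = 0.0033). Fat4 fell by 0.48 ± 0.06 (adjusted p = 0.0069) and by 0.36 ± 0.06 (adjusted p = 0.0095), and Ptprr by 0.48 ± 0.07 (adjusted p = 0.0074) and by 0.35 ± 0.07 (adjusted p = 0.012). Ngfr, the p75 neurotrophin receptor, was above both: it rose by 0.34 ± 0.06 against CC (adjusted p = 0.018) and by 0.91 ± 0.06 against DC (adjusted p = 1.4e-05), the first of which was lost without CC 2, CC 3, CC 4, RC 1 or RC 4 (highest adjusted p 0.079). The first 3 calls against CC held in all 12 fits with an array left out. These genes were named after their values were seen.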
